A study of Mus musculus with 12 samples.

Results

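Cytosolic ribosomal proteins are the protein parts of the ribosome, the particle that reads mRNA and joins amino acids. Rpl proteins build the large subunit, which holds the peptide bond centre, and Rps proteins build the small subunit, which holds the mRNA. Their mRNAs are short and very abundant, most begin with a tract of pyrimidines (a 5' terminal oligopyrimidine tract, or TOP) through which the Mtor pathway controls their translation, and growing tissue is known for making many ribosomes. Several have a paralog, a second gene for a similar protein, used in some tissues only. RNA was measured by poly(A) RNA-seq in 4 groups of 3 samples. Genes were chosen by name: symbols of Rpl or Rps followed by a digit, together with Rplp0, Rplp1, Rplp2 and Rpsa, without pseudogene names, rows that join several genes and the S6 kinases. The rule gave 83 genes of the 23301 names found in every sample. Of these, 74 encode standard subunits (44 large, 30 small), 8 are paralogs (Rpl3l, Rpl7l1, Rpl10l, Rpl22l1, Rpl36al, Rpl39l, Rps4l, Rps27l) and 1, Rps19bp1, encodes a protein that binds Rps19. Rpl7l1 and Rps4l are placed with the paralogs by name alone, and Rps4l is annotated by RefSeq as a transcribed pseudogene.

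The Normal group was mammary gland of female FVB wild type mice aged 12 weeks, untreated, with the abdominal and inguinal glands of 3 mice pooled in each replicate. The Tumor group was untreated mammary tumor from the thoracic glands of female MMTV-PyVT mice aged 12 weeks, 1 mouse per replicate. In these mice the MMTV promoter drives the polyoma virus middle T antigen in mammary epithelium, so every tumor shares this 1 oncogene. The DMSO and C646 groups were tumors of MMTV-PyVT mice labelled 12 weeks old, with an injection of DMSO (the solvent) or C646 (an inhibitor of the histone acetyltransferase p300) at a labelled 1 mg/kg, and the biggest tumor of each of 3 mice was sequenced. Values are FPKM, fragments counted per length of transcript and scaled to the fragments mapped in the sample. Normal and Tumor files and the DMSO and C646 files were made in 2 separate sets, so each comparison was tested within its own set. Tissue, gland position and pooling differed together between Normal and Tumor and cannot be told apart, and in bulk tissue more cells of a type and more RNA per cell cannot be told apart either. The files give no read counts, so the depth of each sample is unknown. Gapdh, a gene that cells use throughout, was listed at 0 to 0.194 FPKM in the Normal and Tumor samples, so values near 0 are given below as listed.

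Printed first are stretches at the starts of some of these genes, to show pyrimidine runs near the annotated start and the paralogs beside their namesakes. RefSeq promoters (GRCm38.p6, 250 bases before to 50 after a start) were held for 64 of the 83 genes. Each window is 30 bases, 5' to 3' on the gene's strand, around the longest unbroken run of 8 or more C or T within 50 bases of the start nearest the annotated gene. Capitals mark that run, or the first where a second run is as long. In the Rps27l window a second run of 9 follows in lower case. A window with no run of 8 or more begins 10 bases before the start. The marked runs began from 39 bases before the start (Rpl22) to 31 bases after it (Rpl3l), so a marked run need not be a TOP.
Rps27 (chr3:90213631-90213660, - strand): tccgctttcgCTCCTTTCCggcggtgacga
Rps27l (chr9:66946054-66946083, + strand): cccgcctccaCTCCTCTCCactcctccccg
Rpl36a (chrX:134585673-134585702, + strand): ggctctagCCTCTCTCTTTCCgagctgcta
Rpl36al (chr12:69184020-69184049, - strand): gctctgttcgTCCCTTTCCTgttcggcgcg
Rpl22 (chr4:152325679-152325708, + strand): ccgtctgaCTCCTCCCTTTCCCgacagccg
Rpl22l1 (chr3:28805499-28805528, + strand): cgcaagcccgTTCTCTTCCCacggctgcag
Rpl35 (chr2:39005115-39005144, - strand): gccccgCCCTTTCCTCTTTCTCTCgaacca
Rpl38 (chr11:114668568-114668597, + strand): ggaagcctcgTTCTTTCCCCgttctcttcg
Rpl7a (chr2:26910789-26910818, + strand): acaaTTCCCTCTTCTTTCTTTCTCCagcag
Rpl3l (chr17:24727846-24727875, + strand): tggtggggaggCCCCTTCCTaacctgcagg
Rpl7l1 (chr17:46782637-46782666, - strand): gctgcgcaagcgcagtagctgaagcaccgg

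A run of 8 or more pyrimidines on the sense strand lay within 50 bases of a start in 47 of the 56 standard ribosomal protein genes with a promoter (83.9%), against 39.3% of 27025 genes and 37.3% of those also tested in tumor against normal. The stricter form, a C at the start base followed by 4 pyrimidines, was found at 13 of the 56 (23.2%), against 3.01% of all genes and 3.1% of those tested, and at 0 of the 8 other members with a promoter (7 paralogs and Rps19bp1). The letters CCGGAAG, a core that Ets factors are known to bind, stood on either strand of the 300 bases in 24 of the 56 (42.9%), against 9.93% of all genes and 19.4% of the 9558 genes that were also tested in tumor against normal. Read on the other strand this motif is CTTCCGG, whose first 5 letters can lie in a pyrimidine run. These matches describe the annotated starts, which may lie some bases from the starts used in these tissues. The longest run was 21 bases, at Rpl7a.

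Ribosomal protein mRNAs made up a larger share of the RNA in tumors than in normal gland. Their summed level was 71529, 83072 and 62623 FPKM in the 3 Normal samples and 174032, 141366 and 119768 FPKM in the 3 tumors. Every tumor was above every Normal sample, and the means were 72408 ± 10253 and 145055 ± 27319 FPKM (SD, n = 3 each), a ratio of 2.003. As a share of the FPKM of all named genes the members took 12.9% ± 1.22 in Normal and 21.6% ± 1.54 in Tumor (SD, n = 3), a ratio of 1.67. Both differences had a 2-sided exact permutation p of 0.1, the smallest that 3 samples against 3 allow. The level of the median standard gene went from 923 ± 132 to 1811 ± 302 FPKM (SD, n = 3), and the standard genes with a group mean over 1000 FPKM numbered 29 in Normal and 59 in Tumor.

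**Figure D1:**
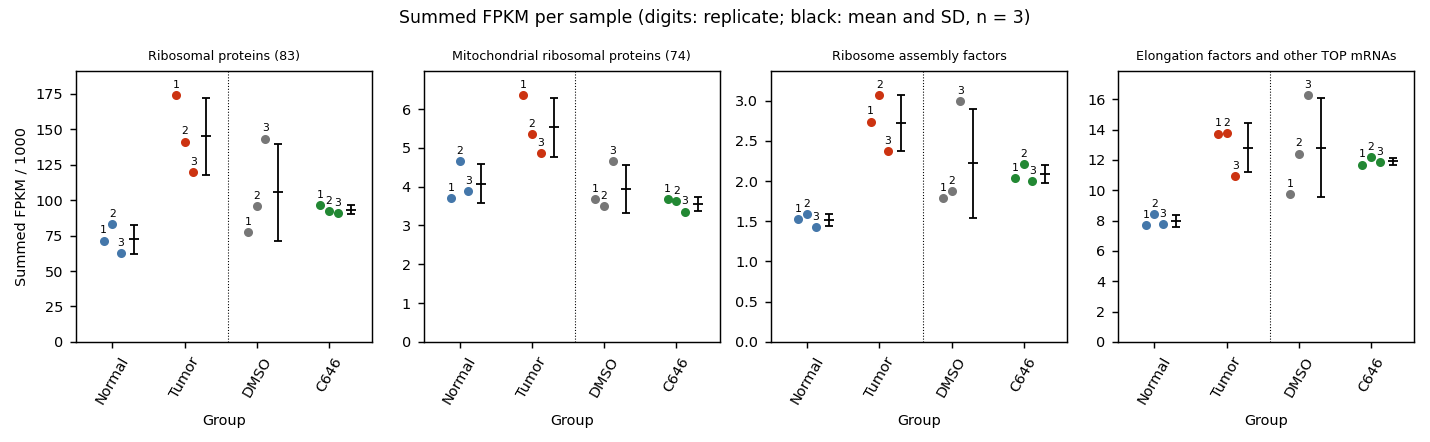
Summed FPKM per sample, divided by 1000 (vertical axis) for the ribosomal protein genes and 3 related lists, by group, with 1 point per sample, its replicate digit, and the mean and SD of 3 samples in black; the dotted line parts the 2 separately made sets of files. The ribosomal protein sums of the 3 tumors (119768 to 174032) all lie above the 3 Normal sums, and DMSO replicate 3 (143392) lies far above the other injected tumors.

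Gene by gene, the rise was broad. Of the 83 genes, 81 passed a filter of 1 FPKM in at least 3 of the 6 samples and were tested with limma on log2(FPKM + 2^-5). Of these, 73 rose in tumors and 1 fell at an adjusted p under 0.05, where the same call was made higher for 28.8% and lower for 31.7% of the 13031 genes tested. The median log2 difference, tumor minus normal, was 1.01 over the members tested and -0.02 over all genes, with the middle part of the members between 0.82 and 1.19 (quartiles). Among the standard genes, 67 of 74 rose, 0 fell, and all 74 had a difference above 0. In 77 members every tumor lay above every Normal sample, which was so for 33.1% of all genes tested, and in 1 member every tumor lay below, as in 35.8% of all genes. Rpl3l and Rpl29 passed the filter only through their tumor values, so they could hardly have been tested without a difference. Rpl10l and Rpl39l, paralogs known from the testis, were not tested. Rpl10l was listed at 0 in every Normal sample and at 0.183, 0 and 0 FPKM in the tumors, and Rpl39l reached 1.11 FPKM in 1 Normal sample and 0.462 FPKM at most in the tumors.

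**Figure D2:**
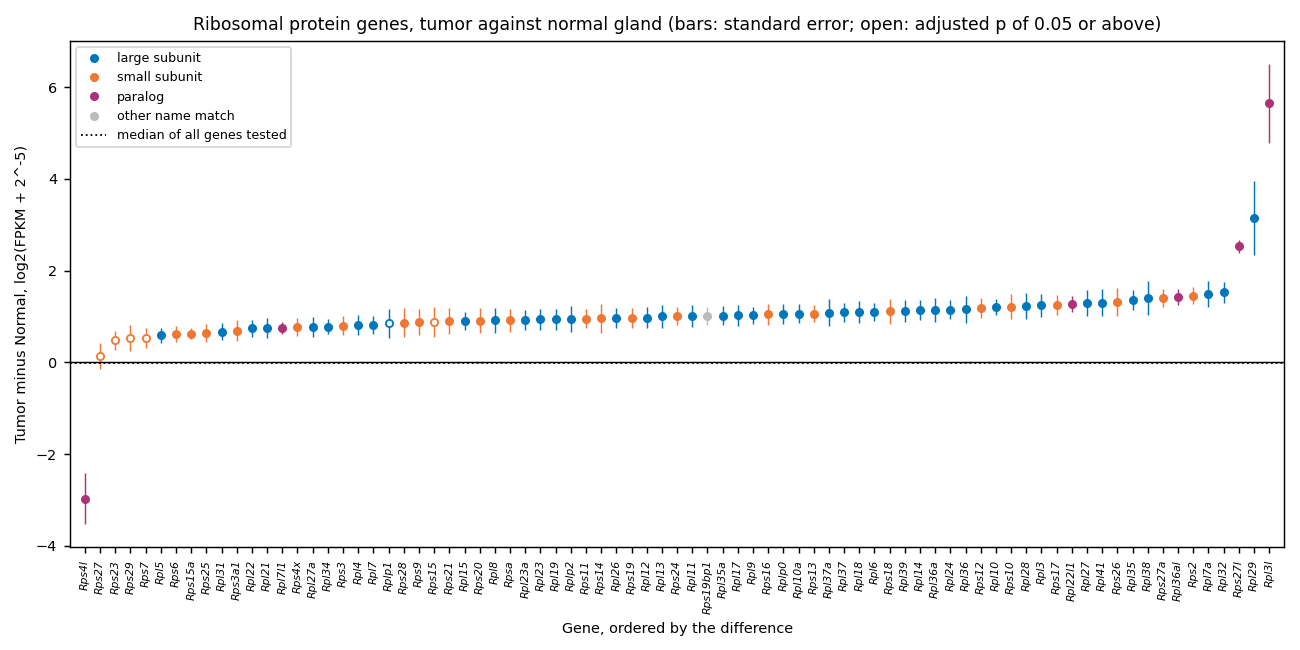
Tumor minus Normal difference in log2(FPKM + 2^-5) (vertical axis) for 79 of the 81 genes tested, in order, with standard errors; colours give the subunit or paralog class, open circles have an adjusted p of 0.05 or above, and the dotted line is the median of all genes tested. Nearly all points lie between 0.5 and 1.5, with Rpl3l, Rpl29 and Rps27l above and Rps4l below.

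The large subunit held a larger part of the ribosomal protein mRNA in each tumor than in any Normal sample. Of the 44 large subunit genes 42 rose, with a median log2 difference of 1.03, and of the 30 small subunit genes 25 rose, with a median of 0.92. The large subunit held 52.0%, 51.5% and 51.6% of the summed FPKM of the standard genes in Normal and 54.4%, 54.8% and 56.0% in Tumor, with no overlap (difference 3.39 percentage points, exact permutation p = 0.1, the smallest possible). The P stalk, the flexible arm of the large subunit that recruits elongation factors, is made of Rplp0, Rplp1 and Rplp2. Rplp0 went from 956 ± 152 to 1986 ± 267 FPKM and Rplp2 from 1738 ± 395 to 3367 ± 801 FPKM (SD, n = 3), and both rose. Rplp1 was 3003, 3794 and 2347 FPKM in Normal and 7109, 5405 and 4071 FPKM in Tumor. Its groups did not overlap, but its difference of 0.85 ± 0.32 (log2, SE) had an adjusted p of 0.0543 and was not called.

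Among the other standard genes that were not called were Rps7, Rps15, Rps23, Rps27 and Rps29 of the small subunit. Rps27, a zinc finger protein of the small subunit, had the smallest difference. It was at 2821, 3455 and 2769 FPKM in Normal and at 4397, 3043 and 2693 FPKM in Tumor, and the groups overlapped (log2 difference 0.14 ± 0.28 SE, adjusted p = 0.686). Without tumor replicate 1 its difference was -0.07. Rps29 (0.54 ± 0.28, adjusted p = 0.142) also overlapped, through Normal replicate 2, its highest Normal sample. Rps7 and Rps23 had every tumor above every Normal sample, as did Rps15, and missed the threshold with adjusted p of 0.0655, 0.0865 and 0.0513.

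The standard genes with the largest differences were Rpl29, Rpl32, Rpl7a, Rps2, Rps27a, Rpl38 and Rpl35. Rpl32 was at 1354, 1369 and 1131 FPKM in Normal and 4350, 3701 and 3108 FPKM in Tumor, a log2 difference of 1.53 ± 0.23 (SE, adjusted p = 0.00115). Rps27a, which encodes ubiquitin fused to a small subunit protein, was at 726, 823 and 700 FPKM in Normal and 2156, 1984 and 1815 FPKM in Tumor (1.41 ± 0.19, adjusted p = 0.000616). Rpl35, near the exit of the peptide tunnel, went from 752 ± 78.7 to 1946 ± 338 FPKM (SD, n = 3). In all 3 genes the tumors stood apart from the Normal samples by more than either group's spread. Rpl38, known for its part in the translation of Hox mRNAs, was at 1258, 1410 and 965 FPKM in Normal and at 2929, 2092 and 5178 FPKM in Tumor. Its highest value was in tumor replicate 3, which was the lowest tumor for 69 of the 74 standard genes and for 32.3% of all genes tested. Rpl41, which encodes one of the smallest known proteins, was the most abundant member in the tumors, at 8733, 7226 and 6542 FPKM, against 3232, 3656 and 2334 FPKM in Normal. Rplp1, Rps15, Rps27 and Rps21 followed it by mean over the 6 samples. Rps21 rose from 1834 ± 414 to 3411 ± 758 FPKM (SD, n = 3, adjusted p = 0.0271), a call that was lost when any of Normal replicates 1 and 3 and tumor replicates 1 and 2 was left out.

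Rpl29, Rpl7a and Rps2 had large differences at low levels. Rpl29 was listed at 0.988, 0.694 and 0.372 FPKM in Normal and at 2.72, 22.7 and 3.29 FPKM in Tumor, far under the other standard genes. Rps2 was at 43.8, 40.9 and 29.3 FPKM in Normal and 113, 108 and 89.1 FPKM in Tumor, and Rpl7a at 73.3, 137 and 140 FPKM in Normal and 268, 389 and 298 FPKM in Tumor. These are genes with many near-identical copies in the mouse genome. In the GENCODE annotation, other genes with a transcript at least 95% identical over at least 80% of the coding sequence numbered 28 for Rpl29, 32 for Rpl7a and 23 for Rps2. How reads were shared among such copies is not given in the sources used here, so these 3 levels are uncertain, and their low place in the order may not be that of the mRNA. The 6 standard genes with 20 or more copies had a median of 179 FPKM over the 6 samples, against 1424 FPKM for the 56 genes with 1 to 9 copies, yet Rps12 with 23 copies stood at 1472 FPKM. The median log2 difference was 1.32 with 20 or more copies (6 of 6 rose, Rpl29 included), 0.90 with 10 to 19 copies (8 of 9 rose), 1.01 with 1 to 9 copies (50 of 56 rose) and 0.92 with none (3 of 3 rose), and these medians were not tested against each other. Standard genes with no such copy rose as well, among them Rpl8 by 0.92 and Rps3 by 0.80 on the log2 scale.

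**Figure D3:**
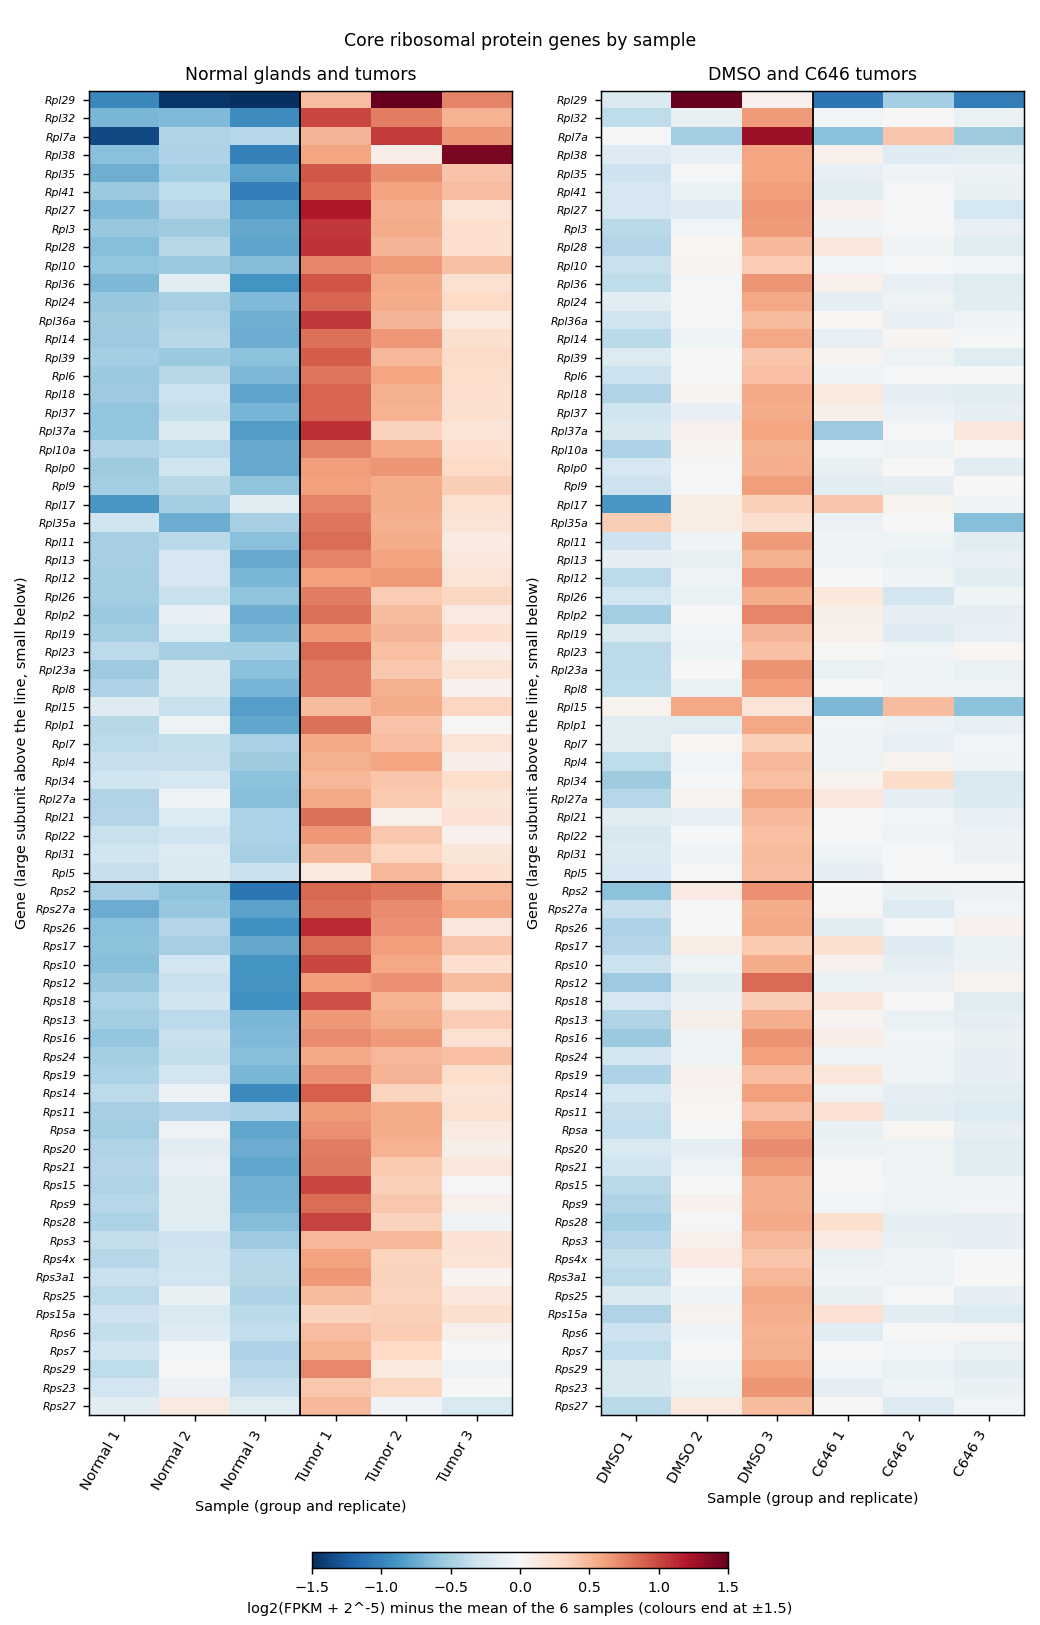
Each row is 1 of 72 standard ribosomal protein genes and each column a sample; colour gives log2(FPKM + 2^-5) minus the mean of the 6 samples in that set of files, with large subunit genes above the line. The Normal and Tumor blocks differ in nearly every row. In the second set DMSO replicate 3 is the highest column and DMSO replicate 1 the lowest in most rows.

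The genes placed with the paralogs ranged from the lowest difference of all members, -2.97 (Rps4l), to the highest, 5.65 (Rpl3l), on the log2 scale. Rps27l, an Rps27 paralog known as a target of p53, was at 140, 141 and 154 FPKM in Normal and 927, 771 and 821 FPKM in Tumor. The tumors were all far above the Normal samples, a log2 difference of 2.53 ± 0.15 (SE) with an adjusted p of 2.67e-05, the lowest of any member. Its coding sequence (252 bases, as in Rps27) is identical to that of Rps27 at 76.2% of bases. Because Rps27 itself hardly differed, Rps27l went from 4.97, 4.08 and 5.57% of the Rps27 level in Normal to 21.1, 25.3 and 30.5% in Tumor (exact permutation p = 0.1, the smallest possible). Rpl36al, which shares 87.7% of coding bases with Rpl36a, rose from 275 ± 20.0 to 743 ± 117 FPKM (SD, n = 3, log2 difference 1.43 ± 0.17 SE), and Rpl36a rose too, so that their ratio overlapped between groups (exact permutation p = 0.2). Rpl22l1 was at 160, 163 and 144 FPKM in Normal and 310, 427 and 401 FPKM in Tumor (1.27 ± 0.17). Its ratio to Rpl22, with which it shares 66.9% of coding bases, was 86.2 to 87.3% in Normal but 85.3, 139 and 165% in the tumors, so tumor replicate 1 did not share the shift (exact permutation p = 0.4). Rpl7l1 rose from 37.4 ± 3.37 to 62.9 ± 2.30 FPKM (SD, n = 3).

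Rpl3l, an Rpl3 paralog known from skeletal muscle and heart, had the largest difference and the lowest level of the members tested. It was listed at 0.232, 0 and 0.195 FPKM in Normal and at 11.6, 3.89 and 5.13 FPKM in Tumor (adjusted p = 0.00117). In the tumors this was 0.243 to 0.513% of the Rpl3 level. Rpl3l passed the filter only through its tumor values, as said above, so its call carries that limit. All 8 skeletal muscle markers also rose in the tumors, where 28.8% of all genes tested were called higher. Named after their values were seen, Actn3 and Myh1 were under 1 FPKM in every Normal sample and Myh4 in all but 1. Actn3 and Myh1 passed the filter only through their tumor values. The summed level of the 8 markers was 109, 41.9 and 39.0 FPKM in Normal and 4656, 2808 and 1656 FPKM in Tumor. Tumor replicate 1 was highest in this sum and in Rpl3l. Tumor replicate 2 was above tumor replicate 3 in the sum and below it in Rpl3l. In the injected tumors the same sum was 0.774, 1.69 and 378 FPKM with DMSO and 376, 2.23 and 345 FPKM with C646, and Rpl3l was listed above 0 in the same 3 tumors, at 0.570, 1.15 and 0.785 FPKM, and at 0 in the other 3. The part of muscle in the Rpl3l result was not tested. Rps4l, annotated by RefSeq as a transcribed pseudogene, was the member that fell, from 15.03, 23.2 and 12.04 FPKM in Normal to 4.29, 0.838 and 2.30 FPKM in Tumor (log2 difference -2.97 ± 0.56 SE, adjusted p = 0.00298). Rps19bp1 rose from 31.2 ± 5.47 to 63.3 ± 13.8 FPKM (SD, n = 3).

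**Figure D4:**
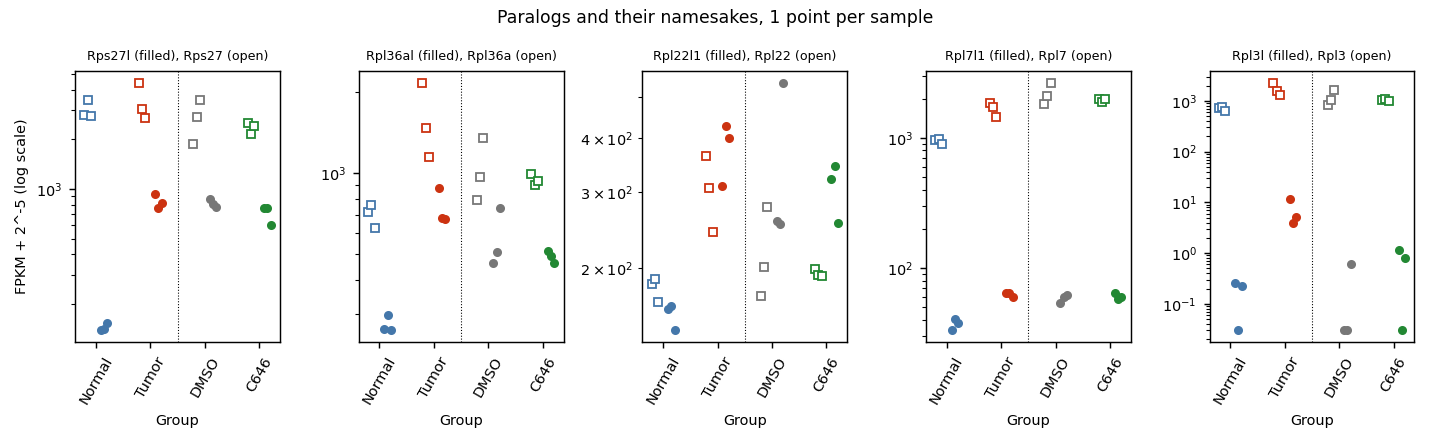
FPKM + 2^-5 on a log axis for 5 paralogs (filled circles) and their namesakes (open squares), 1 point per sample, by group; the dotted line parts the 2 sets of files and values listed at 0 sit at 2^-5. Rps27l lies far higher in the tumors (771 to 927) than in Normal (140 to 154) while Rps27 overlaps, and Rpl3l is low in every group.

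Ribosomal protein genes that the name rule left out were measured in other rows. Fau encodes a ubiquitin-like fusion with a ribosomal protein, and Gnb2l1 (Rack1) encodes a scaffold of the small subunit head. Gnb2l1 rose from 901 ± 138 to 2051 ± 234 FPKM and Fau from 1257 ± 317 to 2279 ± 630 FPKM (SD, n = 3). Among rows that join a ribosomal protein gene with another gene, that of Rpl13a rose (log2 difference 1.06), and that of Rpl30, joined with the predicted gene Gm12191, did not pass the test (0.10, adjusted p = 0.627).

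Other lists of the translation machinery are given beside the 28.8% of all genes called higher and 31.7% called lower. Of 44 ribosome assembly factors tested, 31 rose and 0 fell, with a median log2 difference of 0.74. Among them Fbl, the methylase of ribosomal RNA, went from 61.6 ± 7.05 to 121 ± 10.5 FPKM, Npm1, a nucleolar chaperone, from 246 ± 18.0 to 571 ± 118 FPKM, and Ncl (nucleolin) from 58.6 ± 2.22 to 91.0 ± 16.1 FPKM (SD, n = 3). Of 15 genes of RNA polymerase I and its factors, 7 rose and 0 fell (median 0.43). Of 33 initiation factors 20 rose and 1 fell (median 0.54), the exception being Eif4a2, named after its value was seen, at -0.64. In a list of 11 elongation factors and other TOP mRNAs, 8 rose (median 0.84), with Eef2 at 0.84 and Tpt1 at 0.78 on the log2 scale, while Eef1a1, the most abundant, was at 3146 ± 166 and 4020 ± 547 FPKM (SD, n = 3, adjusted p = 0.246). Of 74 mitochondrial ribosomal protein genes, which build the separate ribosome of that organelle, 28 rose and 4 fell, with a median of 0.29.

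Genes that control ribosome production showed no common direction. Of 18 tested, 2 rose and 5 fell, where 28.8% of all genes tested were called higher and 31.7% lower. Myc, a transcription factor that drives ribosome genes, was at 32.7, 28.3 and 32.5 FPKM in Normal and 59.2, 53.1 and 43.3 FPKM in Tumor (log2 difference 0.73 ± 0.15 SE, adjusted p = 0.00521). Mtor, the kinase that acts on TOP mRNAs, fell from 18.8 ± 2.43 to 11.7 ± 1.25 FPKM (SD, n = 3, adjusted p = 0.00764). Larp1, the TOP-binding repressor, was at 18.5 ± 0.778 and 21.1 ± 3.30 FPKM and was not called (adjusted p = 0.339). The other gene that rose was Eif2ak3 (0.58) and among the others that fell were Rictor (-1.06), Eif4ebp1 (-0.76) and Tsc1 (-0.54), all named after their values were seen.

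The cell makeup of the samples moved with these results. The counts below stand beside 28.8% of all genes tested called higher and 31.7% called lower. The 8 B lymphocyte markers summed to 283, 360 and 287 FPKM in Normal and 1.61, 0.843 and 1.25 FPKM in Tumor, and 7 of 7 T lymphocyte markers fell as well. These lymphocyte markers were under 1 FPKM in every tumor, apart from Cd3g at 1.18 FPKM in tumor replicate 3. They passed the filter only through their Normal values, so they could hardly have been tested without a fall. The 10 adipocyte markers summed to 27451 to 34795 FPKM in Normal and 207 to 2671 FPKM in Tumor, and all 10 fell. Luminal epithelial markers rose in 9 of 10 genes, from a sum of 748 ± 292 to 3945 ± 645 FPKM, and all 12 cell division markers rose, from a sum of 131 ± 26.0 to 472 ± 92.0 FPKM (SD, n = 3). Transcript length also moved with the comparison. Among other genes with mRNAs no longer than 1892 bases, the 90th percentile of the standard genes, the median log2 difference was 0.27 (2935 genes), and among longer ones it was -0.11 (8826 genes). The part of cell makeup, of gland and of length in the rise was not tested. Tumor replicate 1 was the highest sample for 64 of the 74 standard genes and for 24.1% of all genes tested. Against the mean of the other 2 tumors, its median ratio was 1.28 for the standard genes. For other genes the ratio was 1.23 with the shorter mRNAs and 1 with the longer ones. The cell division sums of the 3 tumors were 366, 528 and 523 FPKM. The part of length and of cell division in the level of tumor replicate 1 was not tested.

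C646 was given to ask what p300 inhibition does to these tumors. The summed ribosomal protein level with C646 lay within the range of the DMSO tumors, and no gene was called. The summed level was 77430, 95821 and 143392 FPKM in the DMSO tumors and 96645, 92121 and 90601 FPKM in the C646 tumors. The 3 C646 tumors were close together, and the 3 DMSO tumors spread 1.85-fold from replicate 1 to replicate 3 on both sides of them. The means were 105548 ± 34040 and 93122 ± 3144 FPKM (SD, n = 3; exact permutation p = 0.8). As a share of all named genes the members took 13.5, 17.3 and 22.5% with DMSO and 17.4, 17.3 and 17.2% with C646.

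With limma, 79 members were tested, 0 were called in either direction, and 1 (Rpl35a) had an unadjusted p under 0.05. Over all 12083 genes tested the same calls numbered 0 (0.0%) and 384 (3.18%). The median log2 difference, C646 minus DMSO, was -0.12 for the members, 5 of which were above 0, and -0.01 for all genes. The sign rested on 1 DMSO tumor. Without DMSO replicate 3 the median was 0.13, with 73 of 79 members above 0, and without DMSO replicate 1 it was -0.32 with 0 above 0. All 3 C646 values fell inside the DMSO range for 66 of the 74 standard genes. For 70 of the 73 standard genes tested, the 95% interval of the difference lay within 1 of 0 on the log2 scale, and its median half-width was 0.62, so smaller differences in either direction were not resolved.

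**Figure D5:**
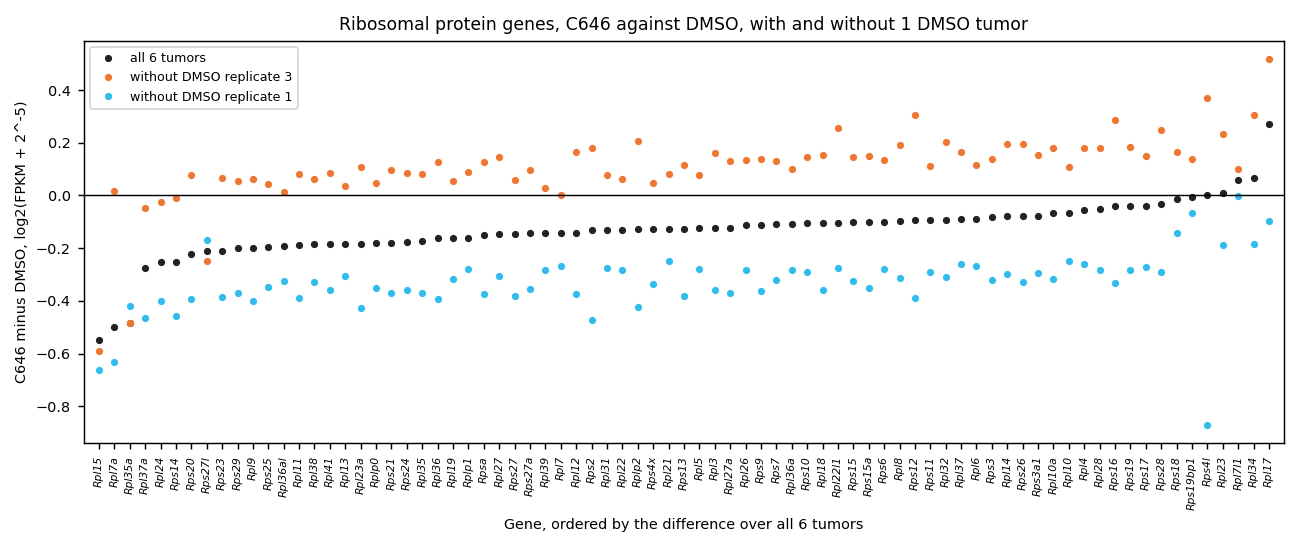
C646 minus DMSO difference in log2(FPKM + 2^-5) (vertical axis) for 77 of the 79 genes tested, in order of the value over all 6 tumors (black), with the value without DMSO replicate 3 (orange) or replicate 1 (blue). The median is -0.12 over all 6 tumors, 0.13 without replicate 3 and -0.32 without replicate 1.

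The members with the lowest unadjusted p are given as values, since none passed the test. Rpl35a, a large subunit protein mutated in Diamond-Blackfan anemia, was at 224, 187 and 205 FPKM with DMSO and 163, 173 and 111 FPKM with C646, with no overlap (log2 difference -0.48 ± 0.19 SE, adjusted p = 0.990). It has 14 near-identical copies, so its level is uncertain. Rps27l was the other tested member whose groups did not overlap, at 872, 813 and 779 FPKM with DMSO and 768, 768 and 602 FPKM with C646 (-0.21 ± 0.16, adjusted p = 0.990). Every C646 tumor lay below every DMSO tumor in 4.52% of all genes tested and in 2 of the 79 members, and above in 4.04% of all genes and in 0 members. Rps27l also kept a negative difference, -0.25, without DMSO replicate 3. Rpl15 was at 190, 275 and 210 FPKM with DMSO and 115, 255 and 120 FPKM with C646 (-0.55 ± 0.33). Rpl17 had the highest difference, 0.27 ± 0.33, at 214, 421 and 501 FPKM with DMSO and 522, 405 and 376 FPKM with C646. For Rpl7a (-0.50), Rpl37a (-0.27), Rpl24 (-0.25), Rps14 (-0.25), Rpl36al (-0.19) and Rps25 (-0.19) the groups overlapped.

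DMSO replicate 3 had the highest value of the 6 injected tumors for 70 of the 73 standard genes tested, and DMSO replicate 1 the lowest for 66. Over all genes tested, replicate 3 was highest in 25.9% and replicate 1 lowest in 24.4%. Against the mean of the other 2 DMSO tumors, replicate 3 had a median 1.65 times higher for the standard genes and 0.983 times for all genes. Some related lists stood high in the same tumor, all 42 ribosome assembly factors tested (median ratio 1.49) and all 11 elongation factors and other TOP mRNAs (1.48), as did 70 of 74 mitochondrial ribosomal protein genes (1.33). RNA polymerase I genes summed to 491 FPKM in it, against 380 and 396 FPKM in the other DMSO tumors. Initiation factors summed to 6043 FPKM, against 4522 and 4699 FPKM. In these 2 lists some genes were lower in DMSO replicate 3, among them Taf1a and Eif4a2, named after their values were seen. All 12 cell division markers were higher in it too (1.604). Its basal and myoepithelial markers summed to 363 FPKM, against 39.6 and 55.9 FPKM in the other DMSO tumors and 66.3 to 73.0 FPKM with C646. Most of that sum was Krt5 (229 FPKM) and Krt17 (92.2 FPKM), named after their values were seen. Against the other DMSO tumors, Myh11 alone of the list was lower in DMSO replicate 3. Fibroblast markers were higher in it in 6 of 6 genes (median ratio 1.58), endothelial markers in 4 of 5 (2.03) and skeletal muscle markers in 8 of 8, the last with the sums given above. Shorter mRNAs of other genes had a median ratio of 1.14 in this tumor and longer ones 0.943. The part of these differences in the ribosomal protein level of DMSO replicate 3 was not tested.

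With 3 tumors against 3, no exact permutation test of the makeup of these mRNAs could reach 0.05, so values are given. The large subunit held 54.1 to 56.2% of the summed FPKM with DMSO and 54.4 to 55.4% with C646 (exact permutation p = 0.7). Rps27l stood at 22.5 to 46.4% of Rps27 with DMSO and 24.9 to 35.4% with C646, and Rpl22l1 at 126 to 194% of Rpl22 with DMSO and 133 to 179% with C646. Rpl7l1 stood at 2.97, 2.85 and 2.36% of Rpl7 with DMSO and at 3.27, 3.06 and 3.01% with C646, without overlap (exact permutation p = 0.1, the smallest possible). Rpl41 was again the most abundant, at 4157, 4643 and 7696 FPKM with DMSO and 4451, 4926 and 4617 FPKM with C646, followed by Rplp1, Rps27, Rps26 and Rpl32. Among the lowest of those tested were Rps4l (0.321 to 2.32 FPKM), Rps19bp1, Rpl7l1, Rpl21 (57.7 to 90.9 FPKM) and Rps2 (48.4 to 119 FPKM). Rpl29, Rpl3l, Rpl10l and Rpl39l were not tested. Rpl29 was listed at 0.693, 5.71 and 0.846 FPKM with DMSO and 0.367, 0.560 and 0.379 FPKM with C646.

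The other lists of the translation machinery had 0 calls with C646 by limma and 0 genes with an unadjusted p under 0.05: initiation factors (34 tested), assembly factors (42), RNA polymerase I (15), elongation factors and other TOP mRNAs (11), mitochondrial ribosomal proteins (74) and growth control genes (18). Their medians ran from -0.10 to 0.04. Myc was at 34.6, 30.7 and 61.9 FPKM with DMSO and 34.3, 41.8 and 41.1 FPKM with C646, highest in DMSO replicate 3. Mtor (log2 difference -0.21), Larp1 (0.04), Eef2 (0.01), Eef1a1 (-0.09), Tpt1 (-0.06), Npm1 (-0.01), Ncl (0.04), Fbl (-0.03), Fau (-0.27) and Gnb2l1 (-0.09) were not called. Adipocyte markers had a positive difference in 9 of 9 genes tested, without a call, and summed to 76.8 to 180 FPKM with DMSO and 198 to 733 FPKM with C646. Unlike the lists above, 8 of the 9 had an unadjusted p under 0.05 by limma, against 3.18% of all genes. In 6 every C646 tumor lay above every DMSO tumor, against 4.04% of all genes. Plin1, named after its values were seen, passed the filter only through its C646 values. Adipoq, Cidec, Retn and Plin4, named likewise, reached 1 FPKM in 1 DMSO tumor only and in every C646 tumor. They too would not have passed without their C646 values, so the adipocyte counts carry that limit.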

How the data were processed

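Poly(A) RNA-seq libraries, non-directional and paired-end, were made from 12 samples. The authors trimmed reads with cutadapt, aligned them to mm10 with TopHat2 2.1.1 and deposited FPKM values computed with Cufflinks 2.2.1. The deposited FPKM values were used as they stand. Repeated names were summed (544 names in the Normal and Tumor files, 473 in the others, none of them a member), and 1837 unnamed rows of the Normal and Tumor files were left out. The test took genes that reached 1 FPKM in 3 or more of the 6 samples, on log2(FPKM + 2^-5), a pseudocount of 0.03125 FPKM, which understates the change of low genes, with limma 3.58.1 (R 4.3.3; empirical Bayes with a mean trend), Benjamini-Hochberg adjustment over all genes tested and a threshold of 0.05, separately for Tumor against Normal and C646 against DMSO. Single values were compared by exact permutation over samples. The fits were tested on simulated data. Counts are unknown, so no depth-based interval is given; steps in low values gave depths of 0.920 to 1.29 times that of DMSO replicate 1 for the injected tumors. Near-identical copies were found with BLAST 2.17.0 in GENCODE transcripts (GRCm38). Genes named in the text were, for Tumor against Normal, up to 10 members per direction with the largest difference among those called without overlap, for C646 the 10 of lowest unadjusted p, the 5 highest and 5 lowest members, all paralogs, and a fixed list of other genes. Alternatives were other pseudocounts, no filter, other scalings, no trend, a replicate block and leaving out each sample. The members and lists were chosen with earlier results of these data known. Some genes are not reported here by name. Replicates were separate mice, or pools of 3 mice in the Normal group.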

Additional observations from a re-analysis of the deposited data

How the results depend on the processing

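The count of ribosomal protein genes higher in tumor (73) ran from 55 to 76 when each sample was left out in turn and from 56 (quantile normalization) to 77 (median ratio scaling) otherwise; 1 gene, Rps4l, was lower in every setting. The median log2 difference of the members was 0.87 to 1.12 with a sample left out, 0.58 with quantile normalization and 0.76 with values rescaled to TPM. TPM moved the median of all genes to -0.27 and the calls over all genes from 3758 higher and 4128 lower to 2759 and 4866. The members stood 1.02 above the median of all genes with FPKM. Rescaling to TPM shifts all genes of a sample nearly alike, so this gap could hardly change, and it was again 1.02. With quantile normalization the gap was 0.48, for which the cause was not tested. Rps27 turned negative with TPM (-0.11) and quantile normalization (-0.38), without a call. With C646, 0 members were called in any setting. The members' median ran from -0.32 to 0.13 with a sample left out, and was 0.04 with quantile normalization and 0.00 with TPM, where the median of all genes was 0.11. A replicate block gave 70 members higher in tumor (median 1.01) and 0 called with C646 (median -0.12). Same-numbered samples shared only a number: the correlation of their deviations was -0.04, -0.10 and 0.01 for Normal and Tumor and 0.18, 0.07 and 0.11 for the injected tumors, and 1 of 6 and 4 of 6 samples were closest to their own number. Of the single genes named, 36 values over all alternatives crossed the threshold in the tumor comparison (12 gained and 24 lost a call) and none turned direction with a call. Unknown depth limits what low values such as those of Rpl3l can show.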
